A study of Homo sapiens with 6 samples.

Results

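The complement components and regulators followed here are the 9 genes C1R, C1S, SERPING1, C3, CFB, CFI, CD46, CD55 and CD59, measured in A549, an established human lung adenocarcinoma cell line of epithelial origin. Members were all probe sets (groups of array probes that report 1 signal) whose single annotated gene symbol is one of these 9 genes, which gave 37 of the 49372 probe sets on the arrays. The study silenced the long noncoding RNA LINC00525, and its title places the question around p21. All groups were A549 cells grown in serum-containing medium, and 3 control arrays, described in the treatment text as a scrambled negative control, were compared with 3 arrays of cells with LINC00525 lowered, the knockdown arrays. Sample titles carry the prefix "sh" in each group, but small interfering RNA is what the treatment text describes. By genotype field, replicates 2 and 3 of the knockdown were entered as LINC00526 and LINC00527, against LINC00525 in the titles. Separate cultures are not stated for the replicates, and p-values then cover only sample-to-sample spread, possibly technical.

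Complement is a cascade of serum proteases and binding proteins that tags surfaces for destruction. In the classical pathway C1r and C1s are the proteases of the C1 complex, of which C1s cuts C4 and C2. The serpin C1 inhibitor, encoded by SERPING1, blocks both proteases. All routes meet at the cleavage of C3, which factor B, encoded by CFB, amplifies as the protease of the alternative pathway convertase. Host cells are protected by CD55, which speeds the decay of convertases, by CD46, a cofactor for the cleavage of deposited C3b and C4b by factor I (encoded by CFI), and by CD59, which blocks assembly of the membrane attack complex. CD55 and CD59 are held at the membrane by a glycosylphosphatidylinositol anchor and CD46 by a membrane-spanning segment. The liver makes most circulating complement, and lung epithelial cells also make several of its components. Interferons and inflammatory cytokines are known to raise complement genes such as CFB and C3 in many cell types.

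The promoters of CFB, C1R and CD55 are shown because these 3 genes rose at several probe sets and differ in the motifs they hold. Of the 9 genes 6 were matched in the RefSeq promoter table (GRCh38.p14), and C1S, C3 and SERPING1 are missing from it. Each line gives the 250 bases before the outermost listed start, 5′ to 3′ on the strand of the gene, with motif matches in capitals. The windows are chr6:31945845-31946094 (plus strand) for CFB, chr12:7092446-7092695 (minus strand) for C1R and chr1:207321428-207321677 (plus strand) for CD55.
CFB: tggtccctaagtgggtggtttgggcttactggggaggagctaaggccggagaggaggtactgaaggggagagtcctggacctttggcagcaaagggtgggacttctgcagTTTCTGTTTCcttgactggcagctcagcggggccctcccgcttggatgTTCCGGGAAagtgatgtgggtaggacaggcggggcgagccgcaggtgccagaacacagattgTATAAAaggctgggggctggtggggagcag
C1R: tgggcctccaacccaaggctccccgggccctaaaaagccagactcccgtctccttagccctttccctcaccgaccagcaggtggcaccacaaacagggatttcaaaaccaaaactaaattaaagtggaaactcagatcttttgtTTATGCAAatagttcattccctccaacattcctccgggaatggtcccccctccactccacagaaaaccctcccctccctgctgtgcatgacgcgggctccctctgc
CD55: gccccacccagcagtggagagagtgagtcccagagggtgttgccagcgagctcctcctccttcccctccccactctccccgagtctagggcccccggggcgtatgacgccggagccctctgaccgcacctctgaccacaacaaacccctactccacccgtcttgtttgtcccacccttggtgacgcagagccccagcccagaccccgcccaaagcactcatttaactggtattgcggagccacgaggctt

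Motifs were searched by their letters on both strands. They were GAAA, any 2 bases and GAAA for the interferon-stimulated response element, TTCNNNGAA for the gamma-activated site, GGGA, any 2 bases and TTCC for an NF-kB site, TTNNGCAA for a C/EBP site and TATAAA for a TATA box. The CFB window held a response element match on the opposite strand (TTTCTGTTTC, bases -140 to -131 from the start), a gamma-activated site match (TTCCGGGAA, -92 to -84) and TATAAA at -30 to -25. Over all 35116 promoter windows of the same length, these letters were found in 3.02%, 6.57% and 10.7%. The C1R window held 1 C/EBP match (TTATGCAA, -106 to -99), as did 9.05% of all windows. None of the 5 motifs was found in the CD55, CD46 or CFI window, and the CD59 window held a gamma-activated site match (TTCTCAGAA, -128 to -120). The NF-kB letters were in none of the 6 windows and in 1.4% of all windows. The response element letters were found in 1 of the 6 windows, that of CFB. Any link between the matches and the changes below was not tested. The matches are descriptions of these windows and show no binding.

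On the gene level, 5 of the 9 genes rose in the knockdown arrays (C1R, C1S, C3, CFB and CD55), 1 fell (CD46) and 3 did not pass the test (CFI, CD59 and SERPING1). Among all 18132 genes 5.77% were called higher and 6.83% lower (limma, Benjamini-Hochberg adjusted p under 0.05), so the share of higher calls among the 9 lies above the background and the share of lower calls rests on 1 gene. The 9 genes were chosen with earlier results of these data known, so this excess is a description and not a test. The median log2 change was 0.35 over the 9 genes and -0.01 over all genes. On the level of probe sets, 16 of the 37 rose, 1 fell and 20 did not pass, against 4.59% higher and 5.25% lower among the 49293 probe sets tested. The control and knockdown arrays did not overlap, with the knockdown arrays higher, at 18 of the 37 probe sets against 11.8% of all probe sets, and with the knockdown arrays lower at 3 of the 37 against 16.8%. Of the 16 higher calls, 15 held when any 1 of the 6 arrays was left out. Values below are log2 RMA signals, and errors of changes are standard errors of the fit over all probe sets.

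LINC00525 itself, the target of the knockdown, had signals of 3.86, 3.74 and 3.97 on the control arrays and 3.67, 3.45 and 3.54 on the knockdown arrays (log2 change -0.30 ± 0.075 SE, gene-level limma adjusted p = 0.0372). Its signal was dim. The Tag control probe sets, 17 sequences without a human target, ranged from 2.27 to 4.6 log2 units, and 1 of them was brighter. The LINC00525 call was lost on leaving out 4 of the 6 arrays in turn (limma adjusted p up to 0.111) and without variance moderation (0.151). Array medians were 5.10 to 5.11. The bacterial hybridization controls were 0.28 log2 units higher on the knockdown arrays, and scaling to them lowers every change by that amount, (the hybridization scale below), so changes given here are set against the bulk of genes on each array. Of 10 epithelial marker genes, the keratin KRT19 rose (log2 0.29, and 0.01 when scaled to the hybridization controls), KRT8 and ELF3 fell by 0.15 and 0.21 and 7 did not pass. The KRT8 call was lost without any single array (limma adjusted p from 0.0816 up to 0.146), after cyclic loess, without variance moderation and with the replicate block (0.0814, 0.0567 and 0.0883), and the ELF3 call without replicate 2 of the control (limma adjusted p = 0.0562). Control signals of the 10 were 4.30 to 12.45, with 0 of the 10 at or under the 90th percentile of the Tag probe sets (3.50). KRT18 was at 12.45 and the cadherin CDH1 at 8.54 on the control arrays. Of 10 alveolar type 2 markers 4 lay at or under that percentile, and 1 rose, the lysosomal membrane protein LAMP3 (log2 0.79, from a control signal of 3.15, with 5 of the 17 Tag probe sets above it). Of the 8 hepatocyte, 9 leukocyte, 8 endothelial and 8 fibroblast markers measured, 4 of each list lay at or under it and 0 passed the limma test (at an unadjusted p under 0.05, 2, 2, 1 and 1 did). Control signals were 2.86 to 5.51 for the hepatocyte, 1.99 to 6.25 for the leukocyte, 2.46 to 4.68 for the endothelial and 1.91 to 4.86 for the fibroblast markers. The leukocyte antigen PTPRC was at 2.32 on the control arrays, a signal that 16 of the 17 Tag probe sets exceeded, and the hepatocyte protein ALB at 3.34, with 3 above it. The brightest markers of these 2 lists, CD14 (6.25) and AMBP (5.51), had 0 Tag probe sets above them.

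**Figure D1:**
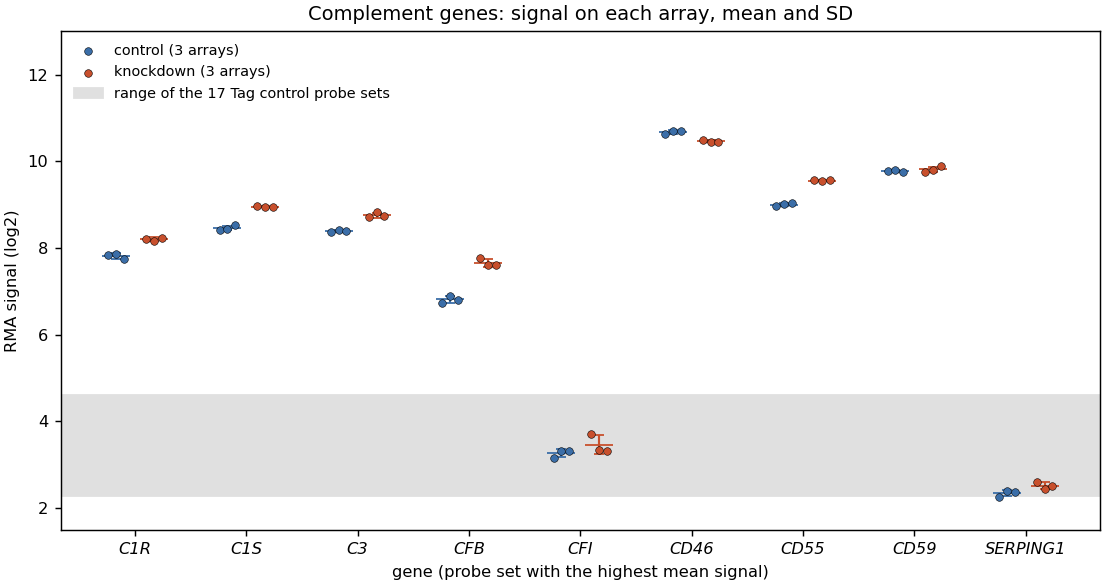
Log2 RMA signal of the probe set that stands for each of the 9 complement genes, on each of the 3 control (blue) and 3 knockdown (red) arrays, with the mean and the SD as bars; the grey band is the range of the 17 Tag control probe sets (2.27 to 4.6). The knockdown arrays lie above the control arrays for C1R, C1S, C3, CFB, CD55 and SERPING1 and below them for CD46, CFI lies within the grey band, and SERPING1 lies at its lower end, with control replicate 1 (2.26) just below it.

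C1R and C1S, the protease genes of the C1 complex, both rose. C1S had signals of 8.42, 8.44 and 8.52 on the control arrays and 8.97, 8.95 and 8.95 on the knockdown arrays. All 3 knockdown values lay above all 3 control values, and the change was 1.41-fold (log2 0.50 ± 0.044 SE, limma adjusted p = 0.000513). This single C1S probe set carries the suffix _s_at, which the array maker gives to sets that can bind transcripts of more than 1 gene. A further probe set annotated to both C1S and EMG1 was not counted; it lay near background (3.50 on control and 3.33 on knockdown arrays) and did not pass (limma adjusted p = 0.188).

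C1R was read by 3 probe sets, all of which rose. Probe set 11742699_a_at gave 7.84, 7.86 and 7.74 on the control arrays and 8.21, 8.16 and 8.24 on the knockdown arrays. Again the groups did not overlap, and the change was 1.31-fold (log2 0.39 ± 0.049 SE, limma adjusted p = 0.00288). The other C1R probe sets, 11742700_s_at and 11742701_x_at, rose by 0.48 ± 0.052 and 0.49 ± 0.085 on the log2 scale, and the changes of the 3 sets did not differ beyond their spread (limma diffSplice over the probe sets of a gene, adjusted p = 0.847). C1S and C1R are adjacent protein-coding genes in the RefSeq gene table, and C1RL, which encodes a related protease, is the neighbour on the other side of C1R. C1RL went from 7.77 to 7.92 without passing the test (gene-level log2 0.16 ± 0.055 SE, limma adjusted p = 0.111); it was singled out after its values were seen. On the hybridization scale C1S was still called (gene-level log2 0.22, adjusted p = 0.031) and C1R was not (0.11, adjusted p = 0.271). Of the C1R probe sets, 11742699_a_at and 11742700_s_at lost their calls there (limma adjusted p = 0.284 and 0.0519), and 11742701_x_at kept its call. The call of 11742701_x_at was lost without variance moderation (adjusted p = 0.0984).

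SERPING1, whose product inhibits C1r and C1s, gave no signal above background. Its probe set 11751845_x_at read 2.26, 2.39 and 2.38 on the control arrays and 2.59, 2.43 and 2.52 on the knockdown arrays, and 16 of the 17 Tag probe sets lay above the control mean. The knockdown values were the higher ones, but the change did not pass (log2 0.17, 95% interval 0.04 to 0.30, limma adjusted p = 0.113). The second SERPING1 probe set, at 2.32 and 2.38, had overlapping groups and an adjusted p of 0.669 in the same limma fit. Near background a change in signal is understated, so these values bound no change of the transcript.

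CFB, which encodes the protease of the alternative pathway, had the largest change of the 9 genes. Its probe set 11733725_a_at read 6.74, 6.89 and 6.81 on the control arrays and 7.76, 7.61 and 7.60 on the knockdown arrays. The lowest knockdown value lay above the highest control value, and the change was 1.79-fold (log2 0.84 ± 0.061 SE, limma adjusted p = 0.000168). Probe set 11744331_a_at went from 5.77, 5.87 and 5.91 to 6.77, 6.96 and 6.70, a 1.95-fold rise. Probe set 11749355_a_at went from 5.12, 5.30 and 5.35 to 6.05, 5.97 and 6.03, a 1.69-fold rise. The fourth, 11761555_at, read 3.30, 3.40 and 3.33 on control and 3.38, 3.49 and 3.41 on knockdown arrays; 3 of the 17 Tag probe sets lay above its control mean, its groups overlapped and it did not pass (limma adjusted p = 0.352). On the hybridization scale the 3 CFB probe sets that rose were still called, at log2 changes of 0.48 to 0.68.

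C3, the central component, was read by 1 probe set, with signals of 8.38, 8.42 and 8.40 on the control arrays and 8.71, 8.82 and 8.73 on the knockdown arrays. The groups did not overlap, and the rise was 1.28-fold (log2 0.35 ± 0.046 SE, limma adjusted p = 0.00328). Among the 5 genes that rose, C3 had the smallest change at the probe set standing for the gene, and its call was lost when the arrays were scaled to the hybridization controls (gene-level log2 0.07, adjusted p = 0.467). CFI, which encodes the protease that inactivates C3b, lay near background. Its probe set 11753068_a_at read 3.16, 3.32 and 3.32 on control and 3.71, 3.34 and 3.32 on knockdown arrays, so that knockdown replicate 1 stood apart and the groups overlapped. Neither CFI probe set passed the test (log2 0.19, 95% interval -0.05 to 0.43, and -0.11, interval -0.31 to 0.09; limma adjusted p = 0.311 and 0.493), and 4 and 6 of the 17 Tag probe sets lay above their control means.

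**Figure D2:**
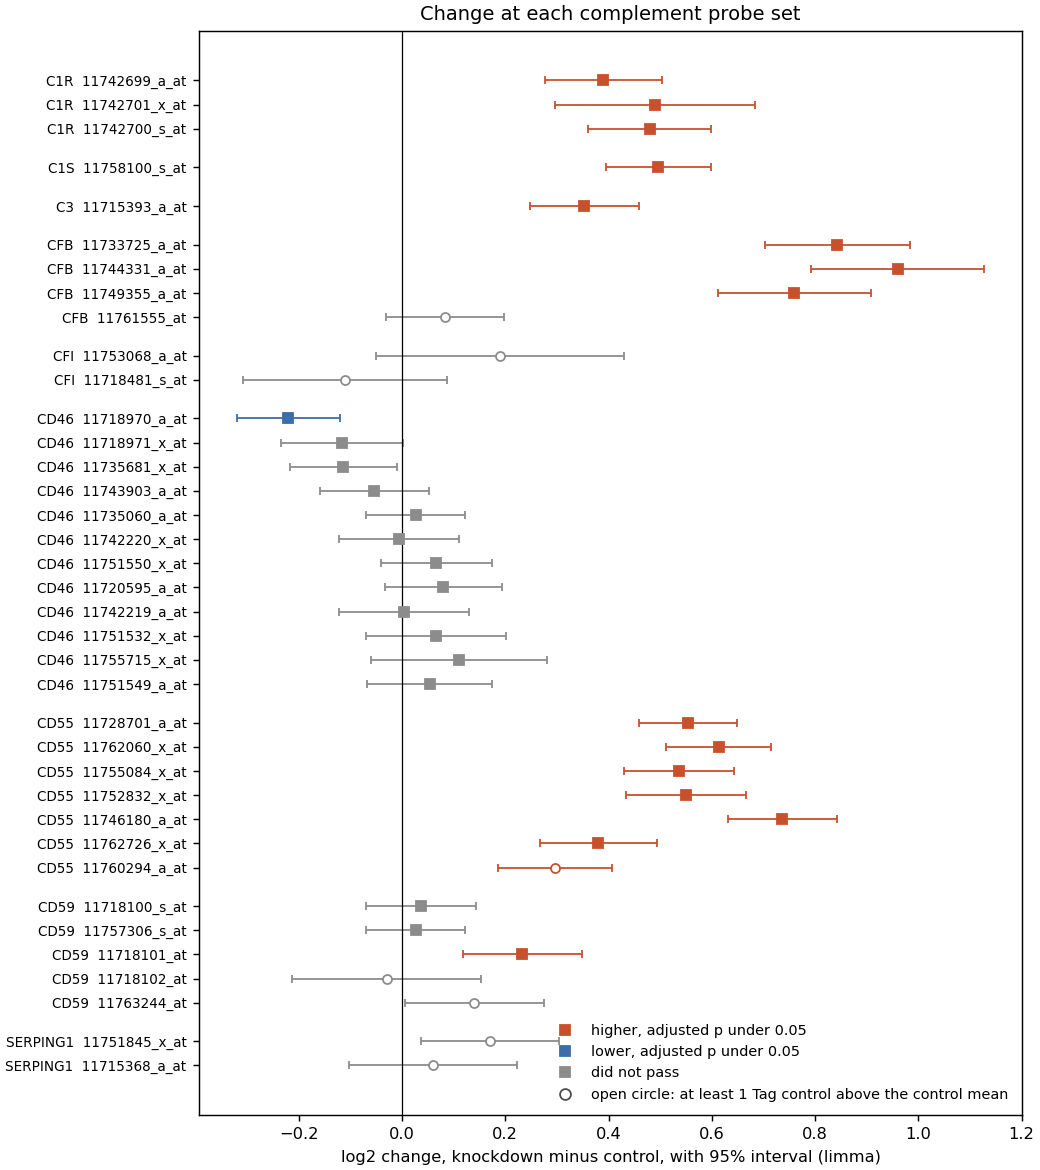
Log2 change (knockdown minus control) at each of the 37 probe sets, grouped by gene, with the 95% interval of the limma fit; red symbols rose, the blue one fell, grey ones did not pass, and open circles have at least 1 Tag control probe set above the control mean. All C1R, C1S, C3 and CD55 sets lie to the right of 0, the 12 CD46 sets spread from -0.22 to 0.11, and 8 sets are near background.

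Among the 3 membrane regulators CD55, the decay-accelerating factor, rose at all 7 of its probe sets. Probe set 11728701_a_at read 8.96, 9.01 and 9.03 on the control arrays and 9.56, 9.54 and 9.56 on the knockdown arrays, a 1.47-fold rise with no overlap (log2 0.55 ± 0.041 SE, limma adjusted p = 0.000197). The largest change was at 11746180_a_at, which went from 8.30, 8.27 and 8.23 to 8.97, 9.06 and 8.98, or 1.67-fold (log2 0.74 ± 0.046 SE, limma adjusted p = 7.02e-05). At 11762060_x_at, 11755084_x_at, 11752832_x_at and 11762726_x_at the log2 rises were 0.61, 0.54, 0.55 and 0.38. The suffix _x_at marks sets in which some probes can bind other transcripts. The seventh, 11760294_a_at, lay near background, from 2.86, 2.90 and 2.81 on control to 3.21, 3.10 and 3.15 on knockdown arrays, and 6 of the 17 Tag probe sets lay above its control mean. On the hybridization scale 5 of the 7 CD55 probe sets were still called, and 11762726_x_at and 11760294_a_at were not (log2 0.10 and 0.02; adjusted p = 0.331 and 0.882).

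CD46, the membrane cofactor protein, was read by 12 probe sets, of which 1 fell and 11 did not pass. The one that fell, 11718970_a_at, read 10.63, 10.70 and 10.71 on the control arrays and 10.49, 10.45 and 10.44 on the knockdown arrays. Its groups did not overlap, and the signal was 1.16-fold lower (log2 -0.22 ± 0.044 SE, limma adjusted p = 0.0192). Probe set 11718971_x_at went from 9.89, 9.95 and 9.94 to 9.86, 9.85 and 9.72, and 11735681_x_at from 9.63, 9.69 and 9.66 to 9.57, 9.58 and 9.49. At both sets the knockdown arrays were the lower ones without overlap, but neither passed (limma adjusted p = 0.209 and 0.164). Both did pass with an intensity trend in the variance (limma adjusted p = 0.0327 and 0.0178) and on the poly-A scale (0.0135 and 0.0122). At the remaining CD46 sets the groups overlapped, with log2 changes from -0.05 to 0.11. The CD46 result on the gene level therefore depends on the probe set chosen to stand for the gene: with all 12 averaged, the log2 change was -0.01 (limma adjusted p = 0.92). The probe set call was also lost when replicate 2 or 3 of either group was left out (limma adjusted p from 0.0533 up to 0.0767), and the gene-level call without replicate 2 of the control (limma adjusted p = 0.0555).

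CD59, the inhibitor of the membrane attack complex, showed no change at the probe sets 11718100_s_at and 11757306_s_at that passed the test. The first read 9.78, 9.80 and 9.76 on control and 9.76, 9.81 and 9.88 on knockdown arrays, and the second 9.20, 9.19 and 9.13 against 9.21, 9.19 and 9.20. Both had overlapping groups, with log2 changes of 0.04 (95% interval -0.07 to 0.14) and 0.03 (-0.07 to 0.12). The set 11718101_at rose from 7.11, 7.25 and 7.15 to 7.43, 7.41 and 7.37, or 1.18-fold without overlap (log2 0.23 ± 0.050 SE, limma adjusted p = 0.0252). Its call was lost without replicate 1 or 3 of the control and without replicate 1 or 2 of the knockdown (limma adjusted p from 0.0728 up to 0.0843), and its change turned to -0.048 on the hybridization scale. The call was also lost on the poly-A scale (log2 0.11, limma adjusted p = 0.205), without variance moderation (0.0807) and with the replicate block (0.0519). The other CD59 sets lay near background, with 3 and 5 of the 17 Tag probe sets above their control means, and did not pass. The 5 CD59 probe sets did not differ from each other in change beyond their spread (diffSplice adjusted p = 0.253). The gene-level call still depends on the probe set that stands for CD59, which is an _s_at set. Without _s_at and _x_at sets the CD59 gene value was called higher (log2 0.23, limma adjusted p = 0.0221).

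Whether the probe sets of a gene changed alike was asked with diffSplice, a test chosen after the values were seen. Of the 35 sets that share a gene with another, 6 differed from the rest of their gene, against 1.86% of the 38590 probe sets so tested. For CD46, 11718970_a_at changed by 0.23 less than the other CD46 sets (difference -0.23, diffSplice adjusted p = 0.00731). For CD55, 11746180_a_at rose by 0.25 more than the other sets (adjusted p = 0.000879), and 11762726_x_at and the near-background 11760294_a_at had differences of -0.17 and -0.26 (diffSplice adjusted p = 0.0382 and 0.000388). For CFB, 11744331_a_at rose by 0.40 more and the near-background 11761555_at had a difference of -0.77 (diffSplice adjusted p = 0.00637 and 3.04e-06). Each difference is set against all other sets of the gene, which for CFB and CD55 include the near-background one. Among the brighter CFB sets, 11744331_a_at rose by 0.96, against 0.84 at 11733725_a_at and 0.76 at 11749355_a_at. Several of these sets share sequence within a gene, so they are not independent readings of it.

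Scaling to either set of controls subtracts 1 constant from every change, whereas cyclic loess can alter their order and kept it for the 9 genes (the plot of changes under 4 scalings). After cyclic loess, and after scaling to the poly-A controls, the same 5 genes were called higher and CD46 lower. On the hybridization scale CFB (log2 0.56), CD55 (0.27) and C1S (0.22) were called higher, and CD46 (-0.50) and CD59 (-0.24) lower. Of all 18132 genes, 232 were called higher and 15085 lower on that scale, so a lower call there is not particular to CD46 or CD59.

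**Figure D3:**
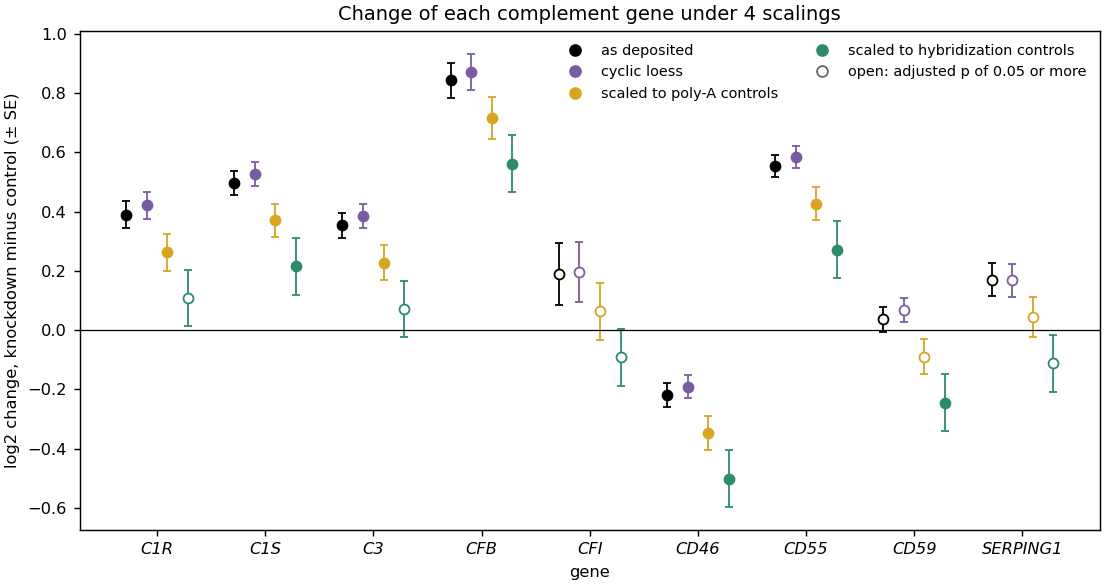
Log2 change (± SE) of each of the 9 genes in the gene-level limma fit, as deposited (black), after cyclic loess (purple), scaled to the poly-A controls (yellow) and scaled to the bacterial hybridization controls (green); open points did not pass. CFB stays highest, at 0.84 as deposited and 0.56 on the hybridization scale, where C1R (0.11) and C3 (0.07) are open and CD59 (-0.24) is filled below 0.

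The other complement genes were followed through a list of 52, of which 46 were measured with a probe set of their own. Of these 1 rose, 0 fell and 45 did not pass in the gene-level limma fit (3 higher and 2 lower at an unadjusted p under 0.05), and their median log2 change was -0.01. Among all genes 5.77% were called higher and 6.83% lower. The gene that rose was CFD, which encodes factor D, the protease that cuts factor B. It went from 7.01 ± 0.064 to 7.20 ± 0.060 (SD, n = 3 each; log2 0.19 ± 0.050 SE, limma adjusted p = 0.0467). Without any single array the call ended (limma adjusted p from 0.0554 up to 0.138), and the change turned to -0.091 on the hybridization scale. In the fit over all probe sets it did not pass (limma adjusted p = 0.0598).

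By role, 0 of 14 genes for classical and lectin pathway recognition and proteases passed (1 higher and 1 lower at an unadjusted p under 0.05), with log2 changes of -0.14 to 0.16. Of 7 genes of the terminal pathway, whose products form the membrane attack complex, 0 passed in the limma fit (1 at an unadjusted p under 0.05), and 5 lay at or under the 90th percentile of the Tag probe sets. C5, the precursor of the first of these, read 6.72 on control arrays and 6.65 on knockdown arrays (gene-level limma adjusted p = 0.51) and was named after its values were seen. Of 10 complement receptor genes 0 passed in the limma fit (0 also at an unadjusted p under 0.05), and 6 lay at or under that percentile. In the fit over all probe sets, however, 1 further set of the integrin gene ITGAM, 11732480_s_at, rose by 0.30 near background (limma adjusted p = 0.0312; 3 of the 17 Tag probe sets above its control mean). Of 13 other regulators and binding proteins 0 passed (1 at an unadjusted p under 0.05 in the limma fit). Among them CLU, the fluid-phase regulator clusterin, named after its values were seen, read 10.52 on control arrays and 10.58 on knockdown arrays (gene-level limma adjusted p = 0.416). On the hybridization scale 40 of the 46 were called lower, as were 15085 of all 18132 genes. Every change is shifted down by 0.28 there.

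**Figure D4:**
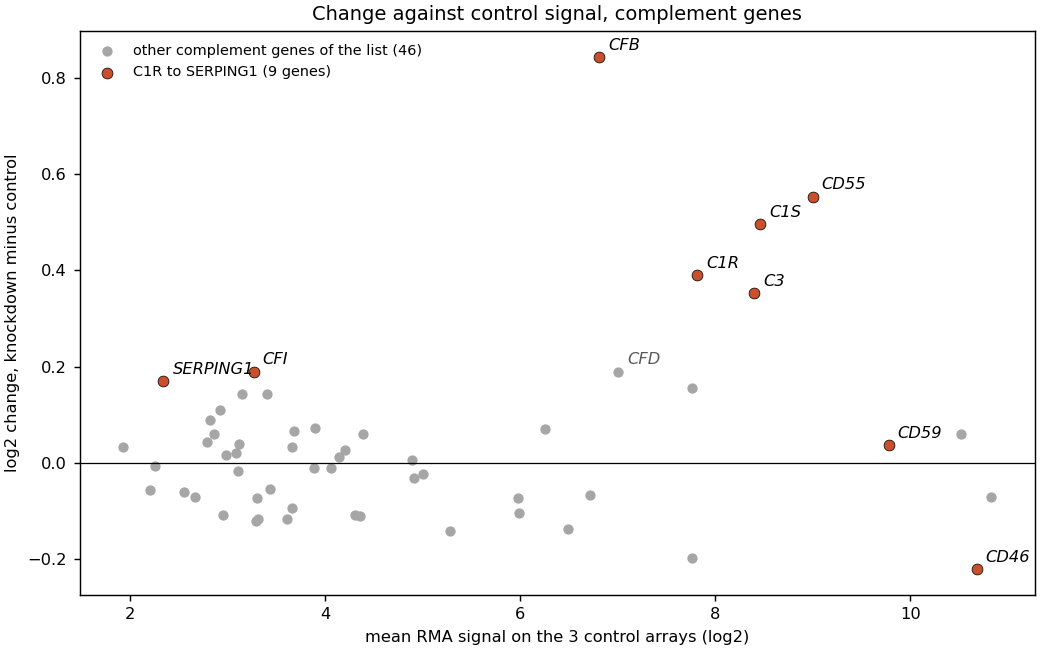
Log2 change (knockdown minus control) against the mean log2 signal on the 3 control arrays for the 9 complement genes (red, named) and the 46 other complement genes of the list (grey, with CFD named). CFB, CD55, C1S, C1R and C3 lie at 0.35 to 0.84, and the grey points lie between -0.20 and 0.19.

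Genes of 3 further lists that touch these 9 were counted in the gene-level limma fit, in which 5.77% of all genes were called higher and 6.83% lower. Of 14 transcription factor genes known to act on complement promoters, 8 rose, 1 fell and 5 did not pass. IRF9, the DNA-binding subunit of the interferon-activated complex ISGF3, rose 2.99-fold, or by 1.58 ± 0.049 (SE) on the log2 scale, with a limma adjusted p of 2.92e-06. The NF-kB subunit RELB rose 1.71-fold and the interferon-induced factor IRF1 1.66-fold (limma adjusted p = 4.84e-05 and 6.56e-05), and CEBPA fell by 0.32 on the log2 scale (limma adjusted p = 0.00522). A further IRF1 probe set, 11761782_at, lay near background and gave -0.01, whereas the others gave 0.58 to 0.73. HIF1A counts as not passed through its brightest probe set (log2 0.07), but 5 of its 7 other probe sets rose, by 0.25 to 0.35 (for 11718759_x_at, limma adjusted p = 0.0089). The calls of IRF9, RELB, IRF1 and CEBPA held on the hybridization scale. Of 17 acute-phase genes, many of which are raised with complement in inflammation, 4 rose and 0 fell (5 higher and 1 lower at an unadjusted p under 0.05). The fibrinogen gene FGA counts as not passed through its brightest probe set, but its sets 11757349_a_at and 11749963_a_at fell by 0.30 and 0.21 (limma adjusted p = 0.0217 and 0.0324). LCN2, which encodes the iron-siderophore binding protein lipocalin 2, rose 1.54-fold (limma adjusted p = 0.000158). The protease inhibitor SERPINA3, the serum amyloid gene SAA1 and CP, which encodes ceruloplasmin, rose by log2 changes of 0.41, 0.41 and 0.32 (limma adjusted p = 0.0176, 0.0242 and 0.0425), and these 3 calls were lost on the hybridization scale (0.13, 0.13 and 0.04). SAA1 lay near background, with 3 of the 17 Tag probe sets above its control mean. Leaving out 1 array ended the call for SERPINA3 in 2 of 6 cases, for SAA1 in 4 and for CP in 5. Without variance moderation these 3 calls were lost too (limma adjusted p = 0.105, 0.13 and 0.168). With the replicate block the calls of SERPINA3 and CP were lost (limma adjusted p = 0.0545 and 0.0933), and on the poly-A scale that of CP (0.053).

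The genes that build the glycosylphosphatidylinositol anchor, on which CD55 and CD59 depend at the protein level, gave few calls: of 28 measured, 2 rose, 3 fell and 23 did not pass (3 higher and 10 lower at an unadjusted p under 0.05 in the limma fit). The called shares are near those of all genes given above (5.77% higher and 6.83% lower). PIGW, PIGM and PIGG, enzymes of anchor assembly, fell by 0.38, 0.30 and 0.22 on the log2 scale (limma adjusted p = 0.00396, 0.0109 and 0.0117), and PIGN, also of that pathway, rose by 0.19 (limma adjusted p = 0.036; -0.095 on the hybridization scale). A second PIGN probe set did not pass. The PIGN call was lost on leaving out 5 of the 6 arrays in turn, and the PIGG call without replicate 2 of the control (limma adjusted p = 0.0529) and with its probe sets averaged (-0.12, limma adjusted p = 0.0722). The PIGM call was lost without variance moderation (limma adjusted p = 0.0611).

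The genes whose 6 values most resembled those of CFB were MCTP1, EIF2AK2, NFKBIZ, SHFL and NLRC5. Likeness was the root mean square difference between the 6 arrays after each gene was centred on its 3 control arrays, and it was 0.0570, 0.0627, 0.0657, 0.0662 and 0.0683 log2 units for the 5 genes. EIF2AK2, the RNA-activated kinase PKR, read 8.01, 8.05 and 8.07 on control and 8.87, 8.87 and 8.80 on knockdown arrays. NFKBIZ, an NF-kB cofactor, read 6.87, 7.04 and 7.09 against 7.88, 7.87 and 7.84. With 2 groups of 3 arrays this measure mostly finds genes with a change of the same size, here log2 rises of 0.78 to 0.87 against 0.84 for CFB.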

How the data were processed

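The authors deposited log2 values of 6 one-colour arrays (biotin-labelled cRNA from total RNA), for which the submitters' processing notes name RMA and nothing else. RMA quantile normalization equalizes the arrays, so shared changes are removed and changes near background are understated. The series' design text speaks of RNA sequencing, but the table holds array values.

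Gene names came from the platform annotation (1 symbol for 44994 of 49372 probe sets), with symbols updated by gene identifier. The comparison used R 4.3.3 and limma 3.58.1 (lmFit, eBayes, 2-sided, no covariate, Benjamini-Hochberg), once over 49293 probe sets without the 79 array controls, and once over 18132 genes, each represented by its probe set with the highest mean. The number of arrays limits the precision. Figures used matplotlib 3.10.9. The scripts were tested on simulated data.

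All probe sets of the 9 genes are named, as are other complement genes past the threshold, up to 4 genes of each further list, and the 5 genes nearest to the member with the largest change. Members and lists were chosen with earlier results of these data known. Probe sets with several symbols were left out. Alternatives were other scalings, filters, variance models and probe set rules, a replicate block, and leaving out each array.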

Additional observations from a re-analysis of the deposited data

How the results depend on the processing

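All counts here are limma calls. As deposited, 16 member probe sets were higher and 1 lower, 5 member genes higher and 1 lower, and 1 other complement gene passed; over all features, 2263 probe sets were higher and 2590 lower, and 1046 genes higher and 1239 lower. Scaled to the hybridization controls, these were 10 and 16 member probe sets, 3 and 2 member genes, 40 other complement genes (0 higher, 40 lower), 557 and 40238 of all probe sets, and 232 and 15085 of all genes. Signs turned there, with a call on that scale or as deposited, for 6 CD46 probe sets (-0.25, -0.21, -0.20, -0.28, -0.21 and -0.23), CD59 probe sets 11718100_s_at (-0.24; also the gene value, -0.24), 11757306_s_at (-0.25) and 11718101_at (-0.048), SERPING1 probe set 11715368_a_at (-0.22), CFD (-0.091) and PIGN (-0.095). A further 5 member probe sets turned with no call on either scale, 11755715_x_at of CD46 (-0.17), 11761555_at of CFB (-0.20), 11753068_a_at of CFI (-0.091), 11763244_at of CD59 (-0.14) and 11751845_x_at of SERPING1 (-0.11). Scaled to the poly-A controls, 5 member probe sets were lower, 17 other complement genes passed (0 higher, 17 lower), and all features gave 1256 and 17199 probe sets and 521 and 7011 genes. With an intensity trend, 3 member probe sets were lower, 3 other complement genes passed (2 higher, 1 lower), and 4760 probe sets and 2063 genes were lower in all. Without variance moderation 0 other complement genes passed (0 higher), against 1109 and 1186 of all probe sets and 611 and 703 of all genes. Without dim probe sets 3 other complement genes passed, 2 of them lower. With probe sets averaged by gene 0 member genes were lower, and without _s_at and _x_at probe sets 0 other complement genes passed (0 higher). Same-numbered arrays deviated together only weakly (correlations of 0.0924, 0.0582 and -0.00953). The titles link them only by number, and whether they shared handling cannot be told from these values. With the replicate block 0 member probe sets were lower, 0 other complement genes passed (0 higher), and 1594 probe sets and 747 genes were lower in all; 15 member probe sets and 5 member genes were higher.

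Leaving out 1 array gave 15 to 16 member probe sets higher and 0 to 1 lower, 5 member genes higher and 0 to 1 lower, 0 to 1 other complement genes (0 to 1 higher), 1313 to 1803 probe sets higher and 902 to 1890 lower, and 632 to 834 genes higher and 472 to 792 lower. The causes of these differences were not tested. Signals near those of the Tag controls (8 of the 37 probe sets) limit what can be read from them.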
